A study of Mus musculus with 10 samples.

Results

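The genes described here belong to the FGF-ERK pathway, the route by which fibroblast growth factors act on ES cells, and to its feedback loop. They are 10 genes, Fgf4, Fgfr1, Fgfr2, Spry1, Spry2, Spry4, Dusp6, Etv4, Etv5 and Egr1, of the 20972 genes that could be named on the array. Every probe whose transcript accession belonged to one of them was taken, which gave 14 probes of 55681. Fgfr1 had 3 probes, Fgfr2 and Etv4 had 2 each and the others had 1, and a gene with several is represented by the probe with the highest mean over the 10 arrays.

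Mouse E14 ES cells, grown with 1000 U/ml Lif and 10% serum, were transfected with dCas9-VP160, a Cas9 that cannot cut DNA fused to an activation domain, and a pool of 5 guide RNAs (gRNAs) against the Hottip promoter (4 arrays) or against the Hoxa13 promoter (3 arrays). The control (3 arrays) is labelled control gRNA, and the study describes it as non-targeting guides with dCas9 but no VP160, so it differs from both pools in VP160 as well as in its guides. All cells were selected with 2 ug/ml puromycin for 24 h and RNA was taken 48 h after transfection, each array from a separate biological replicate. These are pools of transiently transfected and selected cells of 1 line, and in such bulk samples fewer cells of a type and less RNA per cell cannot be told apart.

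In ES cells, Fgf4 is the main ligand that the cells make for themselves, and it signals through the receptors Fgfr1 and Fgfr2 to RAS, the MEK kinases and ERK. Active ERK raises transcription of its own inhibitors, the Sprouty proteins and the phosphatase Dusp6, and of the ETS transcription factors Etv4 and Etv5, while Egr1 is an immediate early gene that responds to it. The levels of these transcripts are commonly read as a record of recent ERK activity, and in ES cells this pathway is known for moving cells out of the self-renewing state and, in the early embryo, towards primitive endoderm.

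All levels are log2 of the processed signal relative to the array's 75th percentile, and a difference is a mean in 1 group minus a mean in another on that scale. On each array, 31.9% to 41.4% of the probes gave a signal well above background. The 7 ES cell markers (such as Pou5f1, Nanog and Sox2) were well above background on all arrays. Hoxa13, the target of the Hoxa13 gRNA pool, was detected above background on 4 of 4 arrays of Hottip gRNAs (mean level 3.70 ± 0.424, SD, n = 4) and on none of the arrays labelled Hoxa13 gRNA (mean level -4.26 ± 0.560, SD, n = 3) or of the control, so the Hoxa13 gRNA arrays did not show the activation that their label names, and every direction given for them is that of the arrays so labelled. Of these, replicates 1 and 2 lay on a slide of their own, and replicate 1 had the steepest slope of the spike-in controls, 1.16 against 0.900 to 0.982 elsewhere. Brighter probes were shifted on these arrays: against the control, the median difference was 0.19 over the 22830 tested probes and 0.63 over the 4771 of them with a mean level over 3. The corresponding medians after Hottip gRNAs were -0.028 and 0.15. Quantile normalization brought the medians over all tested probes to 0.036 for Hoxa13 gRNAs and -0.045 for Hottip gRNAs, and centring each array on its median brought them to 0.23 and 0.22.

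Since Etv4 and Etv5 are ETS factors that act downstream of ERK, the promoters of the genes were searched for 2 ETS-type words. RefSeq promoters (GRCm38.p6, 250 bases before to 50 after the transcript start) were searched for 6 of the 10 genes, Fgf4, Fgfr2, Spry1, Spry2, Dusp6 and Etv5, in 7 promoters. Any promoter of the 10 genes on a chromosome left out of this search is not reported here. The share over all promoters, given next, has no such limit. The words CCGGAA and AGGAAG, read on both strands, occurred in 4 of these 7, against 45.2% of the 32851 promoters in the table. The promoters of Fgf4 and Spry1 and the upstream one of the 2 Etv5 promoters held neither word. The windows that did hold one are printed to show where the words lie, on the strand of the gene, with the word in capitals (CTTCCT is AGGAAG on the opposite strand). A match of letters is a description and shows no binding.
Dusp6, chr10:99263011-99263036, + strand: cttctttctcCTTCCTcccgccgagc
Etv5, chr16:22438352-22438377, - strand: gacgacacaaAGGAAGtggtttaaac
Fgfr2, chr7:130267001-130267026, - strand: ttaagaaggcAGGAAGcactctgaac
Fgfr2, chr7:130266759-130266780, - strand: cacgtgttccCTTCCTaaagga
Spry2, chr14:105896771-105896796, - strand: gtcatctatcCCGGAAtccgggaggg
In the first window the word starts 210 bases before the transcript start of Dusp6, and in the second it starts at base 2 of the Etv5 transcript. The Fgfr2 words start 208 bases before the transcript start and at base 39 of the transcript, and the Spry2 word starts at base 34.

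In ES cells with the control gRNAs, the ligand, the receptors and the feedback genes were all detected: the representing probe of each of the 10 genes was well above background on 3 of 3 control arrays. Over all 10 arrays this held on every array for 8 of the genes and on 9 arrays for Fgfr2 and Spry4. No probe of the 10 genes was saturated on any array.

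Neither guide pool moved any of the 10 genes past the threshold. With limma and Benjamini-Hochberg adjustment over all tested probes, 0 of 10 genes had an adjusted p-value under 0.05 (a call, below) in the comparison of Hottip gRNAs with the control, where 0.718% of all tested probes were called. The count was 0 of 10 for Hoxa13 gRNAs against the control, where 0.175% were called, and 0 of 10 for Hottip against Hoxa13 gRNAs, where 0.381% were called. At an unadjusted p under 0.05 the counts were 0, 2 and 3 genes, beside 8.05%, 11% and 11.9% of all tested probes. A p that misses the threshold does not show that levels were equal: the 95% interval reached a 2-fold change in at least 1 direction for 7 of 10 genes after Hottip gRNAs, for 10 after Hoxa13 gRNAs and for 10 between the pools.

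In each comparison the levels of the groups overlapped for most of the 10 genes. The counts are given beside the share of all tested probes, and the comparisons were not tested against one another. After Hottip gRNAs, 1 of 10 genes (Etv4) was above the control on every array, against 5.94% of all tested probes, and 0 were below it, against 7.77%. After Hoxa13 gRNAs, 3 genes (Fgf4, Fgfr1, Etv5) lay wholly above the control, against 16.7% of probes, and 1 (Spry2) wholly below, against 7.14%. Between the guide pools, 2 genes (Fgfr2, Spry2) were wholly higher after Hottip gRNAs, against 4.98%, and 2 (Fgf4, Fgfr1) wholly lower, against 12.8%. The entries of Fgfr1 and Spry2 hold with the outlier spot of Hoxa13 gRNA replicate 3 left out: with all marked spots kept, 2 genes (Fgf4, Etv5) lay wholly above and 0 below the control after Hoxa13 gRNAs, and between the pools 1 (Fgfr2) was wholly higher and 1 (Fgf4) wholly lower. The shares above were taken without the marked spots, so the counts with these spots kept have no share beside them. The median difference of the 10 genes was 0.060 after Hottip gRNAs, 0.19 after Hoxa13 gRNAs and -0.10 between the pools, beside -0.028, 0.19 and -0.26 over all tested probes. The comparisons share arrays (both guide pools are set against the same 3 control arrays), so their values are given side by side and are not independent.

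**Figure D1:**
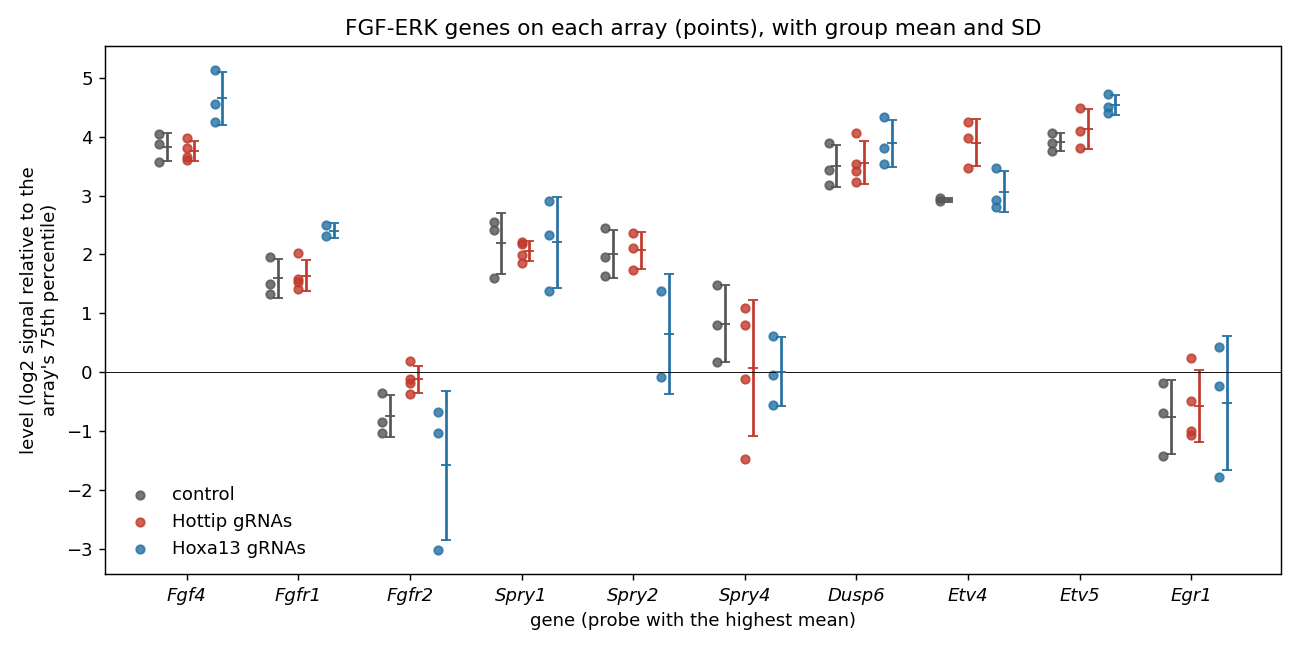
Levels of the 10 genes (log2 signal relative to each array's 75th percentile, y axis) on every array with a value, by group, with the group mean and SD as bars beside the points; each gene is shown by its brightest probe, and levels of different genes cannot be compared. Most groups overlap, while Etv4 is higher on the 3 measured Hottip gRNA arrays (3.46 to 4.25) than on the 2 measured control arrays (2.91 and 2.95), and Fgf4 is highest on the 3 arrays labelled Hoxa13 gRNA (4.25 to 5.13).

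The ligand Fgf4 was bright in all groups. Its level was 3.57, 3.88 and 4.04 on the control arrays, 3.81, 3.65, 3.98 and 3.60 on the Hottip gRNA arrays, and 5.13, 4.56 and 4.25 on the arrays labelled Hoxa13 gRNA (replicates in order of their number). The control and Hottip gRNA levels overlapped fully, and all 3 Hoxa13 gRNA levels lay above every other. The difference was -0.07 after Hottip gRNAs (SE 0.34, 95% interval -0.82 to 0.68, limma adjusted p = 0.999). After Hoxa13 gRNAs it was 0.82 (SE 0.36, 95% interval 0.02 to 1.62, adjusted p = 0.454), a 1.76-fold higher level that did not pass the test, and the two-sided exact permutation p was 0.1, the smallest that 3 arrays against 3 can give. Its size is beside the median of 0.63 for all probes this bright, and it depended on the scaling: it was 0.19 with quantile normalization, 0.30 with cyclic loess and -0.030 with the authors' log2 values. Hottip against Hoxa13 gRNAs gave -0.89 (SE 0.34, 95% interval -1.63 to -0.14, adjusted p = 0.356).

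Fgfr1, the main FGF receptor of ES cells, was at 1.32, 1.498 and 1.96 in the control and at 1.42, 1.53, 2.02 and 1.58 after Hottip gRNAs. On the arrays labelled Hoxa13 gRNA it was 2.49 and 2.31, and the spot of replicate 3 was left out as an outlier (its level was 1.71). The first 2 groups overlapped, and both remaining Hoxa13 gRNA levels were higher than all of them. The difference was 0.05 after Hottip gRNAs (95% interval -0.72 to 0.81, limma adjusted p = 0.999) and 0.81 after Hoxa13 gRNAs (SE 0.41, 95% interval -0.10 to 1.72, 2 arrays against 3, adjusted p = 0.474). It was 0.58 with the left-out spot kept. The 2 dimmer Fgfr1 probes, each well above background on 8 of 10 arrays, gave 0.99 and 0.82 after Hoxa13 gRNAs (adjusted p = 0.622 and 0.509), and 0.91 and 0.08 after Hottip gRNAs (adjusted p = 0.954 and 0.999). The first of these 2 probes varied widely, from -2.76 on a control array to 1.66 on a Hottip gRNA array.

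Fgfr2 is the receptor best known from primitive endoderm and trophoblast. Its levels did not overlap between the guide pools, though the difference did not pass the test. Its representing probe was at -0.34, -1.04 and -0.84 in the control, at -0.18, -0.37, 0.19 and -0.12 after Hottip gRNAs, and at -0.68, -1.03 and -3.02 on the arrays labelled Hoxa13 gRNA. Hottip gRNA replicate 2 was the one array of that group that reached into the control's range, all 4 lay above the Hoxa13 gRNA levels, and Hoxa13 gRNA replicate 3 stood far below all other arrays. It was not well above background there. Against the control the difference was 0.62 after Hottip gRNAs (SE 0.53, 95% interval -0.54 to 1.78, limma adjusted p = 0.952) and -0.84 after Hoxa13 gRNAs (SE 0.56, 95% interval -2.07 to 0.40, adjusted p = 0.544). The latter was -0.11 without Hoxa13 gRNA replicate 3.

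Between the guide pools Fgfr2 was 1.45 higher after Hottip gRNAs (SE 0.53, 95% interval 0.30 to 2.61, limma adjusted p = 0.334; exact permutation p = 0.0286, the smallest that 4 arrays against 3 can give). The second Fgfr2 probe, well above background on 2 of 10 arrays, was too dim to be tested, and its levels are not ordered here. The size of the difference rested on 1 array. Without Hoxa13 gRNA replicate 3 it was 0.73 (adjusted p = 0.333). With the slide as a block, where the difference is taken from replicate 3 alone, it was 2.90 and passed the threshold (adjusted p = 0.0389), the only call of any of the 10 genes in the alternatives run. Since that single array did not have the probe well above background, this is a lower limit (at least 7.46-fold) from 1 array and no replicated difference. On the slide with all 3 groups, the same 2.90 had an adjusted p of 0.0892, with the lone array assumed to vary like the other groups.

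**Figure D2:**
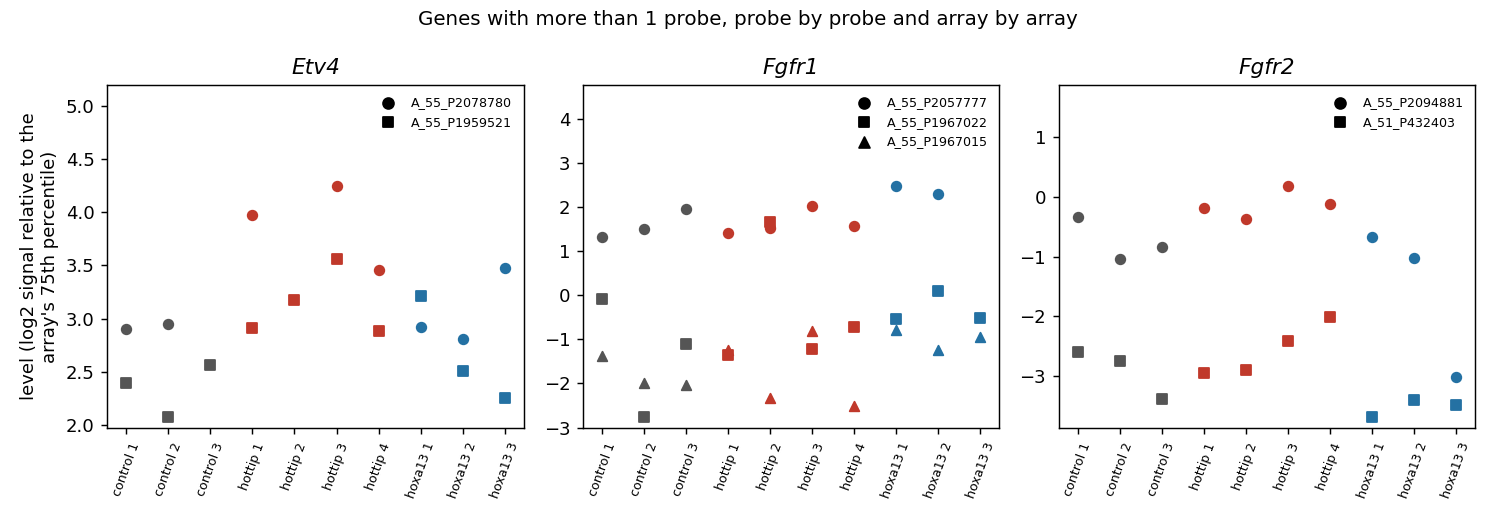
Levels (log2 signal relative to each array's 75th percentile) of each probe of Etv4, Fgfr1 and Fgfr2 on every array, colored by group (grey control, red Hottip gRNAs, blue Hoxa13 gRNAs), with missing points where the spot was left out as an outlier. Both Etv4 probes are above the control on every measured Hottip gRNA array, and Hoxa13 gRNA replicate 3 has the lowest level of the brighter Fgfr2 probe, -3.02.

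The Sprouty genes encode inhibitors that ERK signalling induces and that dampen the pathway between receptor and RAF. Spry1 was at 1.60, 2.42 and 2.56 in the control, at 1.86, 1.99, 2.17 and 2.22 after Hottip gRNAs, and at 2.92, 2.33 and 1.39 on the arrays labelled Hoxa13 gRNA. The 3 groups overlapped. Its differences were -0.13 after Hottip gRNAs (95% interval -1.07 to 0.80) and 0.02 after Hoxa13 gRNAs (95% interval -0.98 to 1.02), with limma adjusted p-values of 0.999 and 0.989.

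Spry2 was at 1.95, 1.63 and 2.45 in the control and at 2.12, 2.36 and 1.73 on Hottip gRNA replicates 2 to 4. On the arrays labelled Hoxa13 gRNA it was 1.37 and -0.07. The first 2 groups overlapped and both Hoxa13 gRNA levels were below them. A pair of spots had been left out as outliers, on Hottip gRNA replicate 1 (level 3.21) and on Hoxa13 gRNA replicate 3 (level 2.69, above every control array). The difference after Hottip gRNAs was 0.06 (SE 0.49, 95% interval -1.04 to 1.16, limma adjusted p = 0.999). After Hoxa13 gRNAs it was -1.36, a level lower by 2.57-fold (SE 0.54, 95% interval -2.59 to -0.13, adjusted p = 0.447), and -0.68 with the marked spots kept. Without Hoxa13 gRNA replicate 2 it was -0.63, and without replicate 1 it was -2.08. Hottip against Hoxa13 gRNAs gave 1.42 (limma adjusted p = 0.367), 0.69 without Hoxa13 gRNA replicate 2 and 2.14 without replicate 1. Each of these left-out values rests on the 1 Hoxa13 gRNA array that still had a value.

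Spry4 varied widely within the Hottip gRNA group, at -1.47, -0.12, 0.80 and 1.09, beside 0.80, 1.49 and 0.18 in the control and 0.62, -0.55 and -0.04 on the arrays labelled Hoxa13 gRNA. All 3 groups overlapped. The differences of the means from the control were -0.75 after Hottip gRNAs (SE 0.62, 95% interval -2.10 to 0.61, limma adjusted p = 0.949) and -0.81 after Hoxa13 gRNAs (SE 0.66, 95% interval -2.26 to 0.64, adjusted p = 0.608). Without Hottip gRNA replicate 1 the first was -0.23. Leaving out single arrays gave -1.13 to -0.48 for the second, with -0.48 reached without control replicate 2. Neither difference passed the test, and the sign of both was negative in all 17 processing settings that gave a value for the test.

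Dusp6, the cytoplasmic phosphatase that removes the activating phosphates from ERK and is among the most used ERK readouts, was bright and steady. It was at 3.19, 3.43 and 3.89 in the control, at 3.42, 3.53, 4.06 and 3.23 after Hottip gRNAs, and at 4.33, 3.80 and 3.54 on the arrays labelled Hoxa13 gRNA. The groups overlapped, and the whole range over the 10 arrays was 1.14. The difference was 0.06 after Hottip gRNAs (SE 0.37, 95% interval -0.75 to 0.87, limma adjusted p = 0.999) and 0.39 after Hoxa13 gRNAs (SE 0.39, 95% interval -0.48 to 1.25, adjusted p = 0.680), with the sign of either turning under other scalings (-0.30 and -0.29 with the authors' log2 values). Hottip against Hoxa13 gRNAs gave -0.33 (95% interval -1.13 to 0.48, adjusted p = 0.688). With the 75th percentile scaling, the interval after Hottip gRNAs thus holds no change of Dusp6 as large as 1 log2 unit.

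Etv4, an ETS factor induced by FGF, was above the control on every measured Hottip gRNA array. Its brighter probe was at 2.91 and 2.95 on control replicates 1 and 2 and at 3.97, 4.25 and 3.46 on Hottip gRNA replicates 1, 3 and 4, and its other probe was at 2.39, 2.08 and 2.56 in the control and at 2.91, 3.18, 3.56 and 2.89 after Hottip gRNAs. On the arrays labelled Hoxa13 gRNA the probes were at 2.92, 2.81 and 3.47, and at 3.22, 2.503 and 2.25. Every measured Hottip gRNA level of either probe was above every control level, and the Hoxa13 gRNA levels of both overlapped both other groups. The brighter probe was 1.95-fold higher after Hottip gRNAs, a difference of 0.97 (SE 0.45, 95% interval -0.04 to 1.98, 3 arrays against 2, limma adjusted p = 0.654, exact permutation p = 0.2). The other was 1.73-fold higher, a difference of 0.79 (SE 0.36, 95% interval -0.01 to 1.59, 4 arrays against 3, limma adjusted p = 0.630, exact permutation p = 0.0286).

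Neither Etv4 probe passed the test after adjustment, although the difference of the brighter one was above 0 in all 18 settings, from 0.65 with normexp background correction to 1.70 with the marked spots kept. The latter value includes a spot at 1.08 on control replicate 3 and one at 4.37 on Hottip gRNA replicate 2. Leaving out single arrays gave 0.79 to 1.18. After Hoxa13 gRNAs the brighter probe differed from the control by 0.14 (95% interval -0.87 to 1.15, limma adjusted p = 0.913), a sign that turned with quantile normalization, median scaling, cyclic loess, normexp, the authors' values and the replicate block. Hottip against Hoxa13 gRNAs gave 0.83 (95% interval -0.08 to 1.73, adjusted p = 0.439) for it and 0.48 for the other (adjusted p = 0.564), so a difference between the pools was not shown.

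Etv5, the related ETS factor, was at 3.75, 4.06 and 3.90 in the control, at 4.09, 4.48 and 3.81 on Hottip gRNA replicates 2 to 4 (the spot of replicate 1, at 5.06, was left out as an outlier), and at 4.72, 4.50 and 4.40 on the arrays labelled Hoxa13 gRNA. Hottip gRNA and control levels overlapped, and the Hoxa13 gRNA levels were above the control. The difference was 0.22 after Hottip gRNAs (SE 0.36, 95% interval -0.57 to 1.02, limma adjusted p = 0.999) and 0.64 after Hoxa13 gRNAs (SE 0.36, 95% interval -0.16 to 1.43, adjusted p = 0.494). The latter is beside the median of 0.63 for all probes this bright, and it was -0.026 with quantile normalization and -0.28 with the authors' values.

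Egr1, the immediate early zinc finger factor, was dim and scattered, at -0.17, -0.68 and -1.42 in the control, -0.999, -1.07, 0.25 and -0.48 after Hottip gRNAs, and 0.43, -1.77 and -0.23 on the arrays labelled Hoxa13 gRNA. The 3 groups overlapped. The differences were 0.18 (95% interval -1.07 to 1.43) after Hottip gRNAs and 0.24 (95% interval -1.10 to 1.57) after Hoxa13 gRNAs, with limma adjusted p-values of 0.999 and 0.886.

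**Figure D3:**
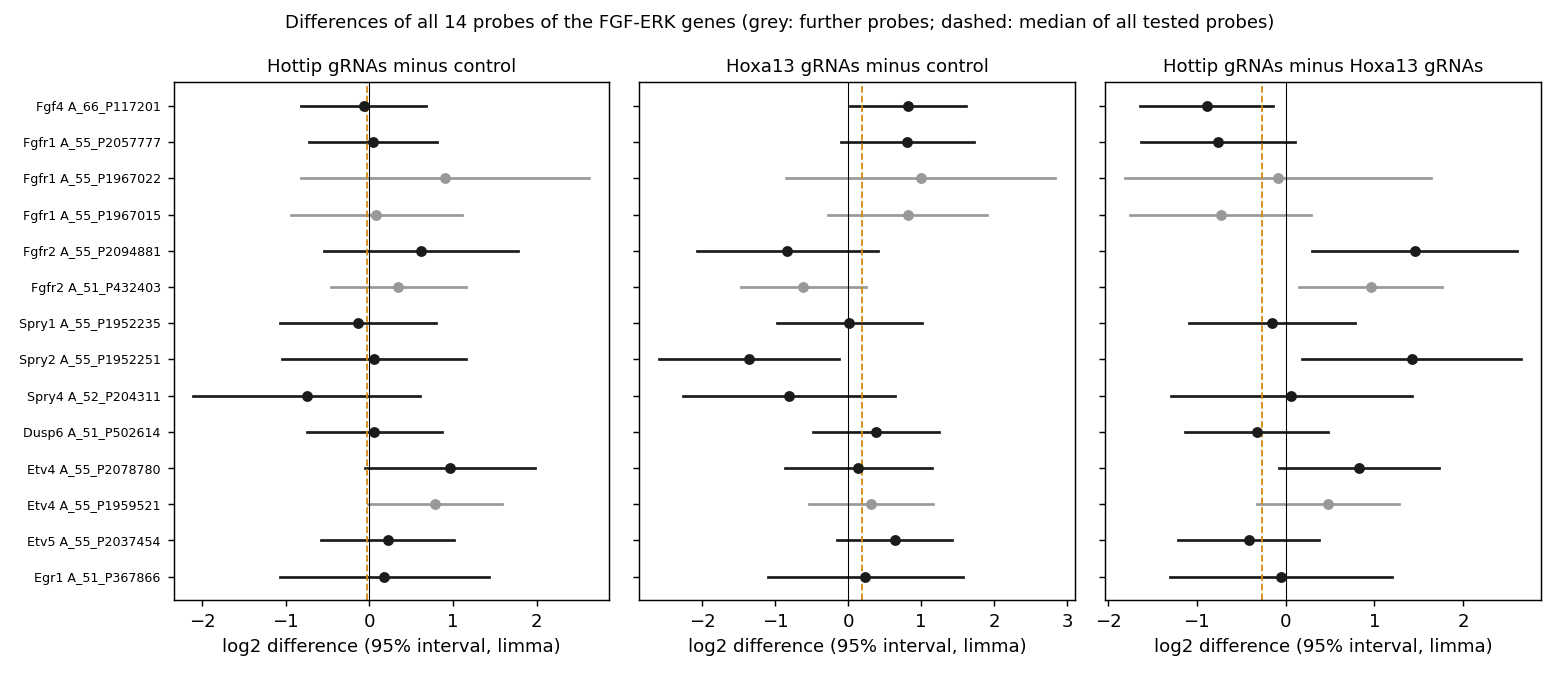
Differences (points, log2 scale) of all 14 probes with 95% intervals from limma in the 3 comparisons, for the probe that represents each gene (black) and further probes (grey); the dashed line is the median of all tested probes. Most intervals include 0, none of the 13 tested probes was called, and in the comparison with the control after Hottip gRNAs the 2 Etv4 probes, 0.97 and 0.79, have intervals that start just below 0.

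The sign of several of these small differences turned with the choice of scaling. On the arrays labelled Hoxa13 gRNA, Fgfr2, Spry2 and Spry4 stayed below the control and Fgfr1 and Egr1 above it in all 6 scalings tried, whereas Fgf4, Spry1, Dusp6, Etv4 and Etv5 changed sign in at least 1. After Hottip gRNAs, Fgfr2, Spry2, Etv4 and Egr1 stayed above the control and Spry4 below it, and the other 5 changed sign. Within the slide that holds all 3 groups, where Hoxa13 gRNA replicate 3 is the one array of its group, the Hoxa13 gRNA differences from the control were 0.42 for Fgf4, -0.81 for Spry1, -0.86 for Spry4, 0.035 for Dusp6, 0.54 for Etv4, 0.50 for Etv5 and 0.53 for Egr1. These values come from 1 array and are given with no test. Fgfr2 was not well above background there, and the spots of Fgfr1 and Spry2 on that array were left out as outliers.

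**Figure D4:**
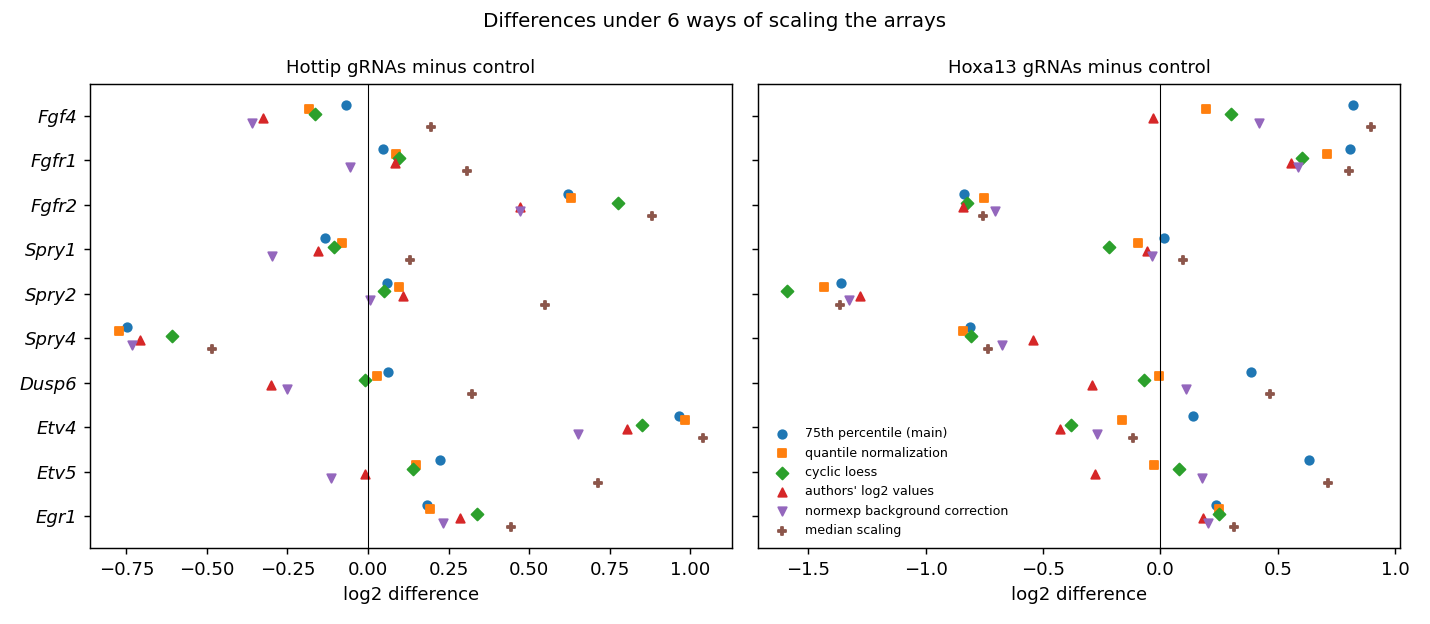
Difference from the control (log2 scale, x axis) of each gene's representing probe under 6 ways of scaling or background-correcting the arrays, for Hottip gRNAs (left) and Hoxa13 gRNAs (right). The points of Fgf4, Dusp6 and Etv5 after Hoxa13 gRNAs move from above 0 to about 0 or below (Fgf4 from 0.82 to -0.030), whereas those of Etv4 after Hottip gRNAs stay between 0.65 and 1.04.

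The other genes of the pathway were read from a list of 66 further ligands, receptors, adaptors, RAS genes, kinases, inhibitors and ERK response genes, of which 55 could be tested. After Hottip gRNAs, 0 rose and 1 fell, beside 0.718% of all tested probes called. After Hoxa13 gRNAs 0 of 55 were called (0.175% of all tested probes), and between the pools 0 of 55 were called (0.381%; limma). At an unadjusted p under 0.05, 1 was higher and 6 lower after Hottip gRNAs, beside 3.76% and 4.29% of all tested probes. The counts were 5 higher and 2 lower after Hoxa13 gRNAs (7.98% and 2.98%), and 2 higher and 7 lower between the pools (4.06% and 7.87%). The median difference over the 55 was -0.094, 0.043 and -0.29 in the 3 comparisons.

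The gene that fell was Fgf8, a ligand made by early embryonic cells as they leave pluripotency. It was at -1.03, -1.03 and -0.77 in the control, at -2.85, -2.81, -3.67 and -4.05 after Hottip gRNAs, and at -1.67, -3.03 and -2.43 on the arrays labelled Hoxa13 gRNA. Every control level was above all the others, and none of the Hottip gRNA arrays had the probe well above background, so its level there has only an upper limit. It was at least 2.96-fold lower after Hottip gRNAs, with a measured difference of -2.40 (SE 0.44, limma adjusted p = 0.0355). This call was a marginal one: it held in 12 of the 27 settings that tested it, with adjusted p-values from 0.0134 to 0.247 and differences from -2.58 to -1.80. Leaving out any 1 control array ended it, and so did leaving out Hottip gRNA replicate 2, 3 or 4 or Hoxa13 gRNA replicate 3. After Hoxa13 gRNAs Fgf8 differed from the control by -1.43 (adjusted p = 0.435).

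By role, the ligands held 1 further gene near the threshold, Fgf1, which binds all FGF receptors and was at 1.98, 1.41 and 1.80 in the control and at -0.11, 0.14, 0.36 and -0.10 after Hottip gRNAs. Its groups did not overlap, and the difference of -1.66 (SE 0.36) had a limma adjusted p of 0.0872. The receptor Fgfr4 was well above background on 2 of 3 control arrays and 0 of 4 Hottip gRNA arrays, with a measured difference of -1.68 (adjusted p = 0.530). It was -0.65 without control replicate 3, at 0.41 beside -2.91 and -2.44.

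Of the 9 tested inhibitors and phosphatases, 3 were above and 6 below the control after Hottip gRNAs, with a median of -0.25. Spred2, a Sprouty-related inhibitor of RAF, had the highest value of the whole list, 2.12 (adjusted p = 0.515), from levels of 1.42, 1.82, -0.40 and 0.23 against -2.46, -1.31 and -0.28 in the control. These overlapped, and in the control only 1 of 3 arrays was well above background. Of the 16 tested effectors and response genes, 9 were above and 7 below the control, with a median of 0.13. The extremes were Rps6ka1, the ERK-activated kinase RSK1, at -2.14 (3 arrays against 3, limma adjusted p = 0.409), and Fosl1, an AP-1 factor, at a measured 1.15 (adjusted p = 0.997). The Rps6ka1 value was -0.91 with the left-out spot of Hottip gRNA replicate 1 kept, -0.70 with normexp and -0.61 with the authors' log2 values. Fosl1 was detected on 0 of 3 control arrays and 2 of 4 after Hottip gRNAs, its groups overlapped, and the measured value was 0.067 without Hottip gRNA replicate 1. Ptpn11, the phosphatase SHP2 that couples receptors to RAS, had a value of 1.099 (adjusted p = 0.991), and 0.28 without control replicate 3, at 0.62 beside 3.12 and 3.05.

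After Hoxa13 gRNAs the low differences from the control included, besides that of Fgf8, that of Dusp2, a nuclear ERK phosphatase, a measured -0.88 (limma adjusted p = 0.472) with the probe detected on 1 of 3 Hoxa13 gRNA arrays and 2 of 3 in the control. The highest were those of Jun, an AP-1 factor, 1.97 (adjusted p = 0.455), Erf, an ETS repressor that ERK inactivates, 1.24 (adjusted p = 0.447), and Dusp9, an ERK phosphatase abundant in ES cells, 1.23 (adjusted p = 0.447). Jun was at 2.35 and 1.33 on Hoxa13 gRNA replicates 1 and 2, which share a slide, and at -1.27 on replicate 3, which lay within the control levels of -0.28, -0.77 and -2.45. Within the slide that holds all 3 groups its difference was -0.10, and those of Erf, Dusp9 and Dusp2 were 0.69, 0.40 and -0.25. With the authors' log2 values that of Dusp9 was 0.046.

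Between the pools, the lowest values, Hottip minus Hoxa13 gRNAs, were those of Rps6ka1, -1.90 (limma adjusted p = 0.370), Jun, -1.76 (adjusted p = 0.429), and Fgf1, -1.16 (adjusted p = 0.270). The highest were those of Spred2, 1.92 (adjusted p = 0.408), Ptpn11, 1.54 (adjusted p = 0.578), and the phosphatase Dusp1, 1.03 (adjusted p = 0.409). The Ptpn11 value rested on Hoxa13 gRNA replicate 3, at -1.46 beside 3.58 and 3.33, and was -0.093 without it. Within the slide that holds all 3 groups, with that array as the one of its group, the values were -0.94 for Rps6ka1, 0.32 for Jun, -1.81 for Fgf1, 0.27 for Spred2, 4.82 for Ptpn11 and -0.13 for Dusp1, given with no test.

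**Figure D5:**
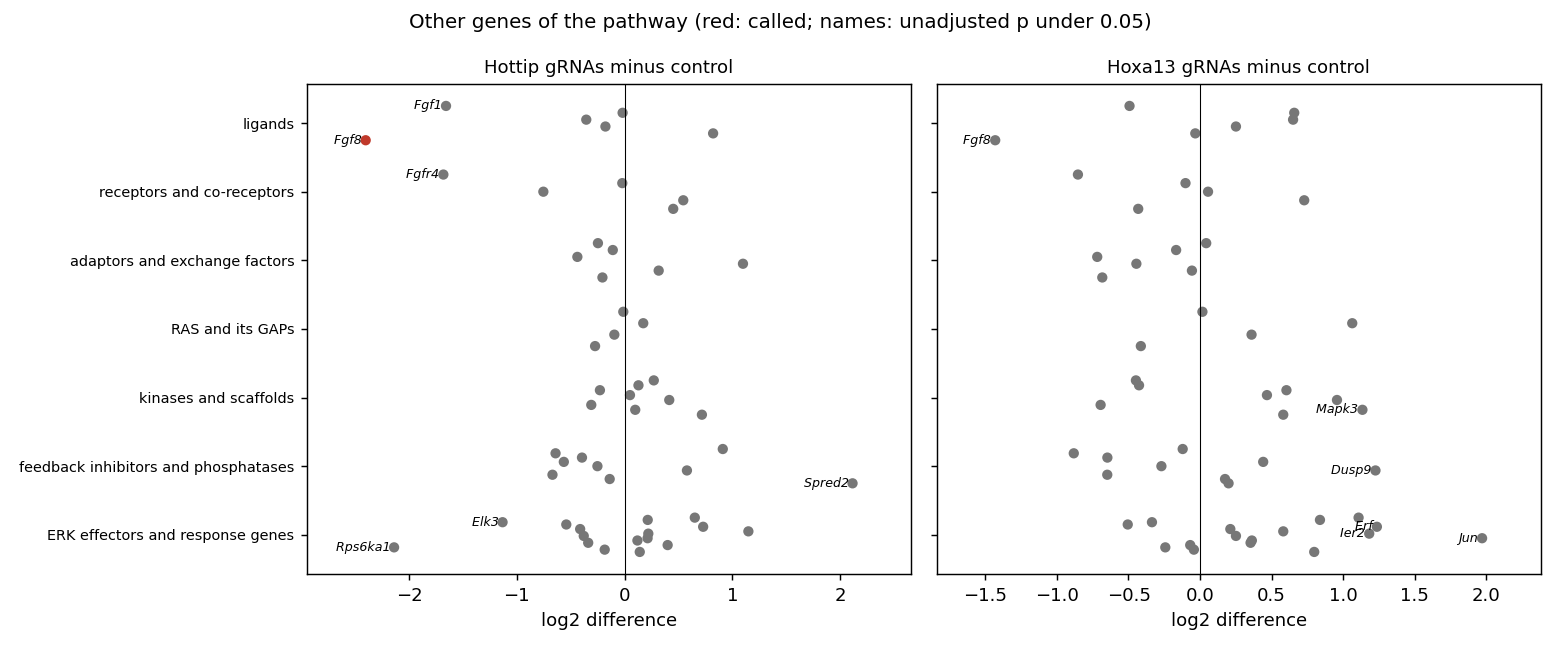
Differences from the control (log2 scale) of 54 of the 55 further tested pathway genes by role, after Hottip gRNAs (left) and Hoxa13 gRNAs (right); each point is a gene, red marks an adjusted p under 0.05 and names mark an unadjusted p under 0.05. The single called gene is Fgf8, at -2.40 after Hottip gRNAs, and the other points lie on both sides of 0 in every role.

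Markers of other cell types moved beside these values. After Hottip gRNAs the trophoblast markers Cdx2 and Gata3 rose, Cdx2 at least 13.3-fold (detected on 0 of 3 control arrays; measured difference 4.06, limma adjusted p = 0.00105) and Gata3 by 2.72 (adjusted p = 0.00649). Each was called in 26 of 27 settings. With the replicate block the differences were about as large, 4.01 and 2.64, but neither was called (limma adjusted p = 0.0554 and 0.126). Of the 7 trophoblast genes, 5 were tested, 2 rose and the others were not called. Elf5 and Hand1 reached that level of detection on no array. All 5 tested genes lay wholly above the control, beside 5.94% of all tested probes, and their median difference was 1.72. An unadjusted limma p under 0.05 was reached by 4 of them, beside 3.76% of all tested probes in that direction. To be tested, a probe had to be well above background on 3 or more arrays. Cdx2 met this only through the Hottip gRNA arrays (4 of 4, beside 1 of 3 Hoxa13 gRNA arrays), so its place in both counts was partly fixed by that filter. Summed levels of a list were taken with the spots marked as outliers kept, unlike the other levels given here. The summed linear level of the trophoblast list, relative to the 75th percentile, was 15.4 to 53.5 after Hottip gRNAs, 7.27 to 9.35 in the control and 12.7 to 28.1 on the arrays labelled Hoxa13 gRNA. The summed level of the 6 primitive endoderm genes was 4.56 to 8.61, 3.16 to 79.4 and 2.32 to 3.31 in the same order, and none of its 5 tested genes was called. For the 6 genes of formative or primed epiblast the sums were 49.9 to 122, 52.8 to 90.6 and 66.3 to 87.8, for the 7 ES cell genes 109.9 to 209.8, 93.2 to 222 and 202 to 334, and for the 7 fibroblast genes 0.948 to 7.81, 1.20 to 3.16 and 1.32 to 2.30, with 0 genes of these lists called by limma and at most 3 of a list at an unadjusted p under 0.05 in any comparison. The part of these cell type markers in the Etv4, Fgfr2 and Fgf8 values was not tested.

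From array to array, some of the 10 genes followed one another and most did not. Over the 45 pairs the median Pearson correlation was 0.12, with 28 of the pairs above 0, a description over at most 10 arrays that share the 3 groups and their scaling. Among Fgf4, Fgfr1, Dusp6 and Etv5, picked after their values were seen, the 6 pairs had r from 0.791 to 0.914 over 8 to 10 arrays, with Fgf4 and Fgfr1 the closest. The arrays also differ by the shift with brightness given above, whose part in these correlations was not tested. For Dusp6, the 5 genes with the most similar levels over the 10 arrays, among 5042 genes well above background on all of them, were Cbx3 (r = 0.957), Rhoc (0.952), Arf1 (0.948), Lrrc47 (0.947) and Pla2g6 (0.940). For Spry4 they were Orc4 (r = 0.960, among 5043 genes), Lrrfip1 (0.951), Cenpi (0.944), Cdk2ap2 (0.940) and Golm2 (0.928). None of these 10 is one of the feedback genes.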

How the data were processed

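One-colour Agilent arrays of 10 samples were used. The authors deposited Feature Extraction 11.5.1.1 output with spot intensities; the processed intensity is background-subtracted and, except on Hottip gRNA replicates 3 and 4, detrended across the array. They also deposited log2 values, quantile normalized as far as their equal quantiles show, used only as an alternative. Control spots were left out, the processed signal was put on the log2 scale and the array's 75th percentile subtracted, spots marked as outliers were left out of the probe values, and spots of a probe were averaged. Saturated spots were kept, and the summed levels of the marker lists kept the outlier spots too. Of 55681 probes, 27656 were named by transcript accession with the RefSeq table of GRCm38.p6; since the arrays were designed on mm9, coordinates were not joined.

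Groups were fitted with limma 3.58.1 in R 4.3.3 over all 10 arrays (eBayes over all probes; Benjamini-Hochberg over the probes detected above background on 3 or more arrays, 22839 in all, of which 22825 to 22830 had values in both groups of a comparison; called at an adjusted p under 0.05), after a check on simulated data. Single genes also had two-sided exact permutation tests. A bound sets the brighter group against the higher of the dim probe's signal and the lowest signal well above background. Exact tests cannot go below 0.0286 (4 arrays against 3) or 0.1 (3 against 3).

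The genes and lists were chosen with earlier results of these data known. Named were the 10 genes, Hoxa13, every called gene of the wider list with its 3 highest and 3 lowest per comparison, and the 5 genes most like Dusp6 and Spry4; Cdx2, Gata3, and Fgf1 against the control were named after their values were seen. The values of 1 gene of the wider list are not reported here; it stays in the counts and medians. Some steps were settled after values were seen, following an earlier processing of the same files: the percentile over all non-control spots (first without outlier spots), detection flags of all spots (first without outlier spots), and eBayes over all probes (first over the filtered probes). The first choices, and outlier spots kept, are among the 27 alternatives: other scalings and background correction, filters, slide or replicate block, subsets of arrays, an intensity trend, mean of a gene's probes, and each array left out.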

Additional observations from a re-analysis of the deposited data

How the results depend on the processing

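Signal over background kept 1 of the 14 probes from being tested. The number of arrays limits the precision: the 95% interval reaches a 2-fold change for 7, 10 and 10 of the 10 genes in the 3 comparisons. In the 3 comparisons, 0 of the 10 genes were called in 83 of the 84 counts made (28 settings with the values as reported), the exception being Hottip against Hoxa13 gRNAs with the slide as a block, where 1 gene, Fgfr2, was called. Replicate numbers gave no sign of pairing the samples (correlations of same-numbered samples' deviations from -0.23 to 0.14). Differently numbered samples were not set beside them. With the replicate block 13, 2 and 8 of all probes were called, against 164 (97 higher), 40 (14 higher) and 87 (62 higher) as reported. Fgf8, Cdx2 and Gata3 lost their calls there (limma adjusted p = 0.247, 0.0554 and 0.126). Their differences after Hottip gRNAs remained about as large, at -2.17, 4.01 and 2.64.

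Among the uncalled differences of single genes, 53 values with other processing had the opposite sign, and the cause was not tested. Against the control after Hottip gRNAs these were Fgf4 0.19 and Spry1 0.13 with median scaling, Dusp6 -0.0089 with cyclic loess, Fgfr1 -0.055, Dusp6 -0.25 and Etv5 -0.12 with normexp, and Dusp6 -0.30 and Etv5 -0.0097 with the authors' values. Against the control after Hoxa13 gRNAs they were Spry1 -0.093, Dusp6 -0.0077, Etv4 -0.16 and Etv5 -0.026 with quantile normalization, Etv4 -0.12 with median scaling, Spry1 -0.22, Dusp6 -0.069 and Etv4 -0.38 with cyclic loess, Spry1 -0.035 and Etv4 -0.27 with normexp, Fgf4 -0.030, Spry1 -0.058, Dusp6 -0.29, Etv4 -0.43 and Etv5 -0.28 with the authors' values, Spry1 -0.81 and Jun -0.10 with the slide as a block and on the slide with all 3 groups, Etv4 -0.022 with the replicate block, and Spry1 -0.042 with the percentile taken without outlier spots. Between the pools they were Spry1 0.012, Dusp6 0.037 and Etv5 0.18 with quantile normalization, Spry1 0.034 and Egr1 0.13 with median scaling, Spry1 0.11, Dusp6 0.060, Etv5 0.060 and Egr1 0.088 with cyclic loess, Spry4 -0.059 and Egr1 0.029 with normexp, Spry4 -0.16, Etv5 0.27 and Egr1 0.10 with the authors' values, Spry1 0.67, Dusp6 0.026, Jun 0.32 and Dusp1 -0.13 with the slide as a block and on the slide with all 3 groups, Spry4 -0.27 with the replicate block, and Egr1 0.041 with the percentile taken without outlier spots.

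Leaving out each array in turn called 0 of the 10 genes throughout and moved the differences across 0 for Fgf4 (-0.20 to 0.036), Fgfr1 (-0.091 to 0.23), Spry1 (-0.43 to 0.051), Spry2 (-0.13 to 0.28), Dusp6 (-0.11 to 0.26) and Egr1 (-0.15 to 0.47) after Hottip gRNAs, for Spry1 (-0.34 to 0.43), Etv4 (-0.064 to 0.27) and Egr1 (-0.24 to 0.86) after Hoxa13 gRNAs, and for Spry1 (-0.56 to 0.20), Spry4 (-0.27 to 0.58), Egr1 (-0.68 to 0.42) and Ptpn11 (-0.093 to 2.42) between the pools. Counts of all called probes ranged from 56 (without control replicate 2) to 240 (without control replicate 3), from 3 to 130 (without the same arrays), and from 11 (without Hoxa13 gRNA replicate 2) to 116 (without control replicate 3).

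The counts of all called probes also moved with the processing. After Hottip gRNAs they were 274 with cyclic loess, 109 with the authors' values, 5 with the filter on all 10 arrays, 413 with the slide as a block and 107 with outlier spots kept. After Hoxa13 gRNAs they were 88 with median scaling, 16 with no filter, 0 with the filter on all 10 arrays (fewer probes tested, 1485 of them at an unadjusted p under 0.05 in limma), 73 with the slide as a block, 22 with only the 2 groups compared, 25 with an intensity trend, 17 with outlier spots kept, 8 with the percentile taken without them and 20 with outlier spots counted as not detected. Normexp turned the split after Hoxa13 gRNAs from 14 higher and 26 lower to 31 and 12, and quantile normalization gave 8 and 26. Between the pools they were 201 with cyclic loess, 31 with no filter, 0 with the filter on all 10 arrays (1214 at an unadjusted p under 0.05 in limma), 133 with the slide as a block, 48 on the slide with all 3 groups, 33 with the percentile taken without outlier spots and 143 with eBayes over the filtered probes alone.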
